A study of Mus musculus with 4 samples.

Results

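The genes described here are 10 that carry glucose into the cell and break it down to lactate: the glucose transporters Slc2a1 and Slc2a3, the hexokinases Hk1 and Hk2, the phosphofructokinase Pfkp, the aldolase Aldoc, the enolase Eno2, the pyruvate kinase Pkm and the lactate dehydrogenase subunits Ldha and Ldhb. They were chosen by symbol, with earlier results of these data known. Every probe set that the platform annotation assigns to exactly 1 of these genes was used. This gave 22 probe sets of the 45101 in the table, for 10 genes of the 18193 with such a probe set.

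The study hybridised RNA of sorted retinal neurons to 4 Affymetrix arrays, 2 from MP amacrine and 2 from MP bipolar samples. The mice were at postnatal day 6. Fathers carried the MP transgene and mothers did not, the offspring were of mixed C57Bl6 x CD1 strain, and the cells of both groups came from papain-dissociated retina and were sorted as positive for the fluorescent protein CFP. Amacrine cells were those positive for the VC1.1 antibody, and bipolar cells those negative for it, taken after a magnetic column had removed VC1.1-positive cells. Each replicate held about 1000 cells, from different litters within a group, and the RNA went through 2 rounds of amplification. The sort sets the groups by a reporter and an antibody, so each group is a mixture of the types that share its reporter and antibody status. Both groups carry the transgene.

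Glycolysis turns glucose into pyruvate in the cytosol, and lactate dehydrogenase exchanges pyruvate with lactate. Most of its steps can be carried out by more than 1 gene product, and these isoforms differ in affinity, regulation and tissue. The retina is known for producing lactate even when oxygen is plentiful, and much of the work on this trait concerns photoreceptors and Müller glia.

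Most tested markers of each label were higher in the group of that label. The summed intensity of 11 amacrine markers was 6470 to 7092 on the amacrine arrays against 551 to 612 on the bipolar arrays, and 8 of 10 tested were higher in amacrine cells, 4 of these through a filter met by the amacrine arrays alone. That of 13 measured bipolar markers was 3573 to 4226 on the amacrine and 15454 to 15836 on the bipolar arrays, and 8 of 11 tested were higher in bipolar cells, 2 of these through a filter met by the bipolar arrays alone. Of the 3 tested bipolar markers not called, 2 lay higher on both amacrine arrays. These were Isl1 (1055 and 925 against 574.5 and 684) and Prkca (490 and 478 against 394 and 418), while Pcp2 lay higher on both bipolar arrays. Otx2, called as higher in bipolar cells, was at 1523 and 1646 on the amacrine arrays. The bipolar markers Trpm1 and Bhlhe23 were too dim to be tested in either group. Of the amacrine markers, Gad2 overlapped (169 and 216 against 131 and 190) and was not called. Slc6a5 lay higher on both amacrine arrays (48.1 and 58.5 against 43.2 and 43.3) and was not called, and Gad1 was too dim to be tested. MP amacrine replicate 2 stood apart in its actin control probe sets, where the log2 signal of the 3-prime end exceeded that of the 5-prime end by 3.82, compared with 1.89 to 2.13 for the other arrays. The number of arrays limits the precision of every value.

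Hk2, Slc2a1, Pfkp and Ldhb were higher in MP amacrine cells, and Eno2 and Pkm were higher in MP bipolar cells. The other 4 genes, Slc2a3, Hk1, Aldoc and Ldha, did not pass the test. A gene was called when its adjusted p was under 0.05 in a limma fit over all 11583 tested genes, with Benjamini-Hochberg adjustment over all of them. In that fit 13.5% of the genes were called, 6.54% as higher in amacrine and 6.92% as higher in bipolar cells. Of the 10 genes 6 were called, and for 9 of 10 the arrays of the groups did not overlap, as was the case for 53.3% of all tested genes. The 10 were chosen with earlier results of these data known, so their shares are not those of a blind choice. For 5 of the 10 both amacrine arrays were the higher (24.2% of all tested genes), and for 4 both bipolar arrays were (29.1%). All 10 passed the filter on dim probe sets, which asked for a value above the array median on at least 2 of 4 arrays, and each did so on arrays of both groups. Of the 10985 genes that passed in this way 10.9% were called, against 69.5% and 50% of those that passed through the amacrine or the bipolar arrays alone. The members' differences ran in both directions, with a median log2 difference of 0.33 against -0.03 over all tested genes. Without that filter, which adds dim genes to the fit, 1 of the 10 was called, Hk2, and 4.31% of all genes. These are sorted populations, so fewer cells of a type that expresses a gene and less RNA per cell cannot be told apart.

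**Figure D1:**
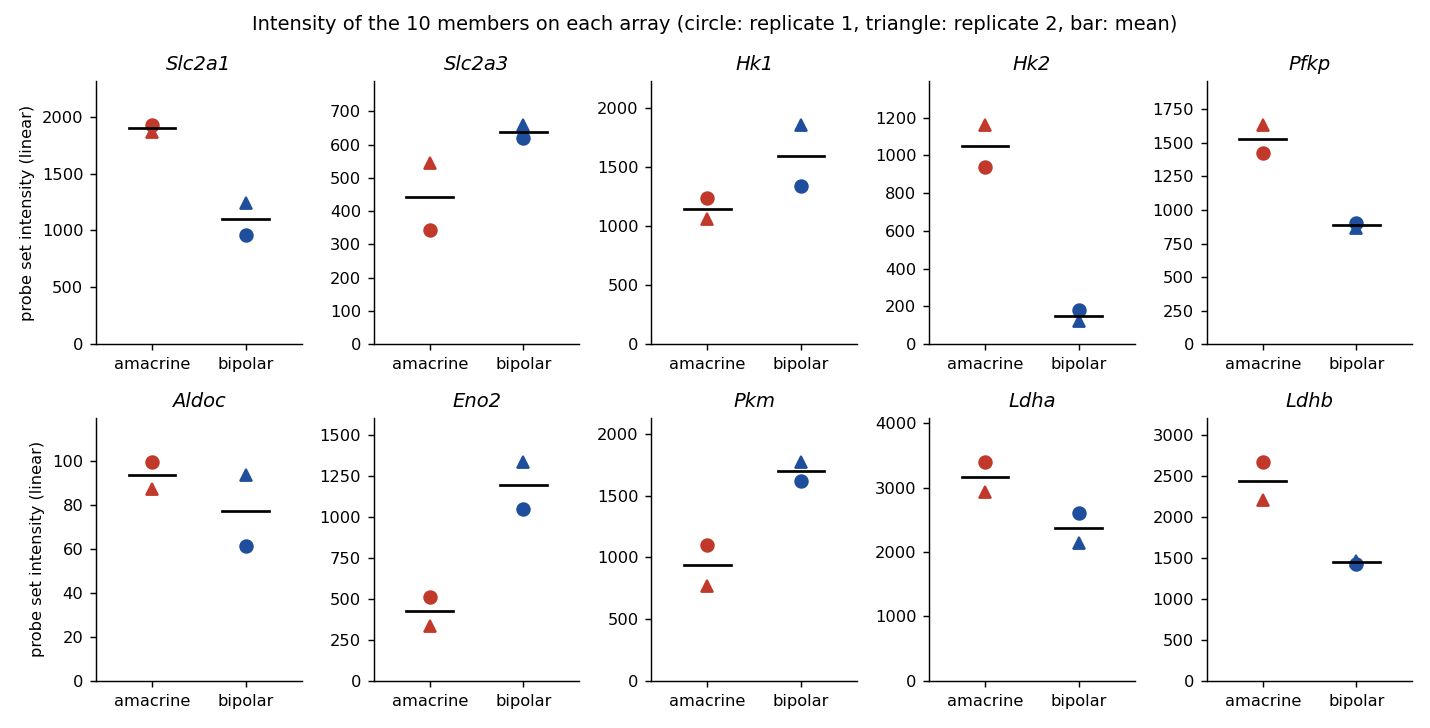
Probe set intensity on a linear scale (vertical axis of each panel) of the 10 genes on the 2 MP amacrine and 2 MP bipolar arrays. Circles are replicate 1, triangles replicate 2 and bars the group means. The groups overlap in the Aldoc panel and in no other, and the widest gap is that of Hk2, at 937 and 1162 against 179 and 123.

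Glucose enters neurons by facilitated transport. Slc2a1, the transporter known for supplying glucose across blood-tissue barriers and to glia and photoreceptors, had intensities of 1927 and 1868 on the amacrine arrays against 962 and 1245 on the bipolar arrays. Both amacrine arrays lay above both bipolar arrays, and the log2 difference was 0.79 (SE 0.18, adjusted p = 0.0235, limma). A log2 difference in this text is MP amacrine minus MP bipolar on the scale log2(intensity + 16). Another probe set of Slc2a1 gave a larger difference of 1.22 (adjusted p = 0.0321 when all probe sets were tested one by one, limma). Its intensities were 620 and 607 in amacrine and 205 and 314 in bipolar cells. The dimmest probe set of the gene pointed the same way at 0.41 and was not called.

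The call for Slc2a1 was lost with 3 of the 4 arrays left out in turn. Without MP bipolar replicate 1 the log2 difference of Slc2a1 was 0.60 (adjusted p = 0.163, limma), without MP amacrine replicate 1 the adjusted p was 0.0505, and without MP amacrine replicate 2 it was 0.0547. Endothelial cells of retinal vessels also express Slc2a1. Of 8 measured endothelial markers 4 were bright enough to be tested and 1, Esam, was called, as higher in bipolar cells. Esam passed the filter on dim probe sets through the bipolar arrays alone. Cdh5 (50.2 and 54.9 against 38.4 and 40.1) and Kdr (78.9 and 116 against 68.5 and 57.1) lay higher on both amacrine arrays, the direction of Slc2a1, and were not called. Cdh5 passed the filter through the amacrine arrays alone. Pecam1 and Tie1 were at 3.21 or less on every array. The summed endothelial list was 237 to 319 on the amacrine and 795 to 800 on the bipolar arrays. Esam carried most of that bipolar sum, and without it the list summed to 207 and 305 on the amacrine and 226 and 189 on the bipolar arrays. The part of these cells in the difference of Slc2a1 was not tested.

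Slc2a3, the high-affinity transporter typical of neurons, pointed the other way. Its brightest probe set had intensities of 342 and 545 on the amacrine and 620 and 660 on the bipolar arrays. The groups did not overlap, but the log2 difference of -0.55 (SE 0.26, 95% interval -1.16 to 0.06) did not pass (adjusted p = 0.255, limma). It was -0.23 without MP amacrine replicate 1 and -0.87 without MP amacrine replicate 2. The other tested probe sets of Slc2a3 gave -0.59 and -0.31 and were not called either. The dimmest was at 1 on every array.

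Hexokinases trap glucose in the cell by phosphorylating it. Hk2, the inducible hexokinase that binds mitochondria and is known from muscle, tumours and photoreceptors, showed the largest difference of the 10 genes. Its intensities were 937 and 1162 on the amacrine arrays against 179 and 123 on the bipolar arrays, a mean of 1050 ± 159 against 151 ± 39.5 (SD, n = 2). The groups were far apart relative to their spread, with a log2 difference of 2.69 (SE 0.26, 95% interval 2.09 to 3.28, adjusted p = 3.38e-04, limma), or 6.43-fold. Among 11583 tested genes Hk2 ranked 129th in the direction of amacrine cells. It was the only called gene of the 10 to keep its call under every one of the 18 alternatives, with differences from 2.38 to 2.93. Hk2 had 1 probe set on the array.

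Hk1, the hexokinase that most neurons use, lay at 1237 and 1059 on the amacrine and 1338 and 1858 on the bipolar arrays. Its difference of -0.46 (SE 0.20, 95% interval -0.93 to 0.02) did not pass (adjusted p = 0.218, limma), although both bipolar arrays lay above both amacrine arrays. It was -0.69 without MP bipolar replicate 1 and -0.22 without MP bipolar replicate 2. Another Hk1 probe set was below the filter, at 11.7 and 6.60 in amacrine and 25.4 and 35.3 in bipolar cells. A further probe set is annotated to Hk1 together with Rpl17 and its pseudogenes and was not used.

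Markers of other cell types also differed between the groups. Of 8 tested Müller glia markers, 4 were called, each as higher in MP amacrine cells, and 1 of these, Slc1a3, through a filter met by the amacrine arrays alone. Of the 4 not called, Clu went the other way, at 188 and 128 in amacrine against 261 and 323 in bipolar cells (-0.84). Glul overlapped (0.17), and Rlbp1 and Apoe lay higher on both amacrine arrays. The sum over all 10 measured Müller markers was 4314 to 4640 against 2213 to 2777, while Aqp4 and Sox9 were too dim to be tested. The 6 progenitor markers summed to 751 to 1014 in amacrine and 267 to 325 in bipolar cells. Of the 2 tested, Ccnd1 was called as higher in amacrine cells. It carried most of these sums, at 542 and 759 against 242 and 188. Mki67, Top2a, Hes1 and Sfrp2 were too dim to be tested. The part of Müller glia and progenitors in the difference of Hk2, Slc2a1 and Ldhb was not tested. The summed levels of 10 rod photoreceptor markers overlapped, at 6877 to 11615 in amacrine and 7609 to 9292 in bipolar cells. Those of 8 cone markers overlapped too. Rp1 of the rod list and Gnat2 of the cone list were called as higher in amacrine cells. The rod markers Nrl (2028 and 1172 against 891 and 850) and Pde6b (890 and 514 against 400 and 379) also lay higher on both amacrine arrays. Sag, Gngt1, Pde6g, Rom1 and Cnga1 overlapped. In the cone list Opn1sw lay higher on both bipolar arrays (215 and 49.9 against 420 and 372) and Cngb3 on both amacrine arrays. None of these was called, and the part of rods and cones in the difference of Hk2 was not tested. Astrocyte and erythrocyte markers were all too dim to be tested.

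Phosphofructokinase commits sugar to glycolysis, and Pfkp is the platelet-type subunit, abundant in brain. The intensities of Pfkp were 1422 and 1635 on the amacrine and 902 and 870 on the bipolar arrays. The bipolar arrays nearly coincided and both amacrine arrays lay above them, with a log2 difference of 0.77 (SE 0.17, adjusted p = 0.0223, limma). A dimmer tested probe set gave 1.33, but its amacrine values were 75.4 and 286 and it was not called. The call for Pfkp was lost without MP amacrine replicate 2 (adjusted p = 0.0766, limma), without MP bipolar replicate 1 (0.0954) and without MP bipolar replicate 2 (0.133). The subunit genes Pfkl (0.25) and Pfkm (0.07) did not pass the test, with Pfkm at 707 and 738 in amacrine and 709 and 663 in bipolar cells.

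Aldolase splits fructose bisphosphate into the triose sugars. Aldoc, the aldolase of brain and a marker of some astrocytes and Purkinje cells, was dim at 99.7 and 87.4 on the amacrine and 61.2 and 93.5 on the bipolar arrays. The groups overlapped, the difference of 0.25 (SE 0.24, 95% interval -0.31 to 0.81) did not pass (adjusted p = 0.605, limma), and its sign turned without MP bipolar replicate 1. Another Aldoc probe set, below the filter, had the opposite sign, at 5.08 and 3.71 in amacrine and 8.43 and 5.87 in bipolar cells. Aldoa, the widely expressed aldolase, was at -0.06.

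Eno2, known as neuron-specific enolase and widely used as a marker of mature neurons, was the member with the largest difference toward bipolar cells. Its intensities were 509 and 337 on the amacrine and 1050 and 1336 on the bipolar arrays. Both bipolar arrays lay far above both amacrine arrays, with a log2 difference of -1.48 (SE 0.26, 95% interval -2.07 to -0.89, adjusted p = 0.00675, limma), which is 2.79-fold higher in bipolar cells. The lower amacrine value of Eno2 came from MP amacrine replicate 2, the array that stood apart in its actin control probe sets. The log2 difference was -1.19 without MP amacrine replicate 2 and -1.77 without MP amacrine replicate 1. The part of MP amacrine replicate 2 in the difference of Eno2 was not tested. Among all tested genes Eno2 ranked 342nd in the direction of bipolar cells. Its call was lost without MP bipolar replicate 2 (-1.31, adjusted p = 0.0559, limma). Eno3, the enolase of muscle, had a difference of -0.84 and did not pass (adjusted p = 0.0625, limma).

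Pyruvate kinase makes pyruvate and ATP in the last step of glycolysis. Pkm, whose splice forms are the pyruvate kinases of brain, muscle and dividing cells, had intensities of 1100 and 772 on the amacrine and 1620 and 1775 on the bipolar arrays. Both bipolar arrays lay above both amacrine arrays, with a log2 difference of -0.87 (SE 0.21, adjusted p = 0.0293, limma). The annotation names the gene and no splice form. The lower amacrine value came from replicate 2, the array with the steeper 3-prime to 5-prime signal. The part of this array in the values of Eno2, Pkm and Ldhb was not tested. Without it the difference of Pkm was -0.62 (adjusted p = 0.0653, limma), and without MP bipolar replicate 1 or 2 the adjusted p was 0.0937 and 0.176.

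Lactate dehydrogenase is a tetramer of A and B subunits, with the A subunit associated with lactate production and the B subunit with lactate use. Ldhb had 4 probe sets, and all pointed to amacrine cells. The brightest had intensities of 2673 and 2204 on the amacrine and 1428 and 1459 on the bipolar arrays, a log2 difference of 0.74 (SE 0.15, adjusted p = 0.0152, limma). The other Ldhb probe sets gave 0.86, 0.99 and 1.09, the first and the second of them called when all probe sets were tested one by one and the last not (adjusted p = 0.0862, limma). MP amacrine replicate 2 was below replicate 1 on each of the 4, most on the dimmest at 927 against 1750. Without MP bipolar replicate 1 or 2 the call for Ldhb was lost (adjusted p = 0.0806 and 0.0790, limma).

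Ldha had intensities of 3404 and 2927 on the amacrine and 2612 and 2143 on the bipolar arrays. The groups did not overlap, and the log2 difference was 0.41 (SE 0.14, 95% interval 0.08 to 0.75). The unadjusted p was 0.0214 and the gene did not pass after adjustment (adjusted p = 0.113, limma). Without MP bipolar replicate 2 the difference of Ldha was 0.27. Both subunit genes thus had higher values on the amacrine arrays, and for Ldhb alone of the pair the difference was called.

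**Figure D2:**
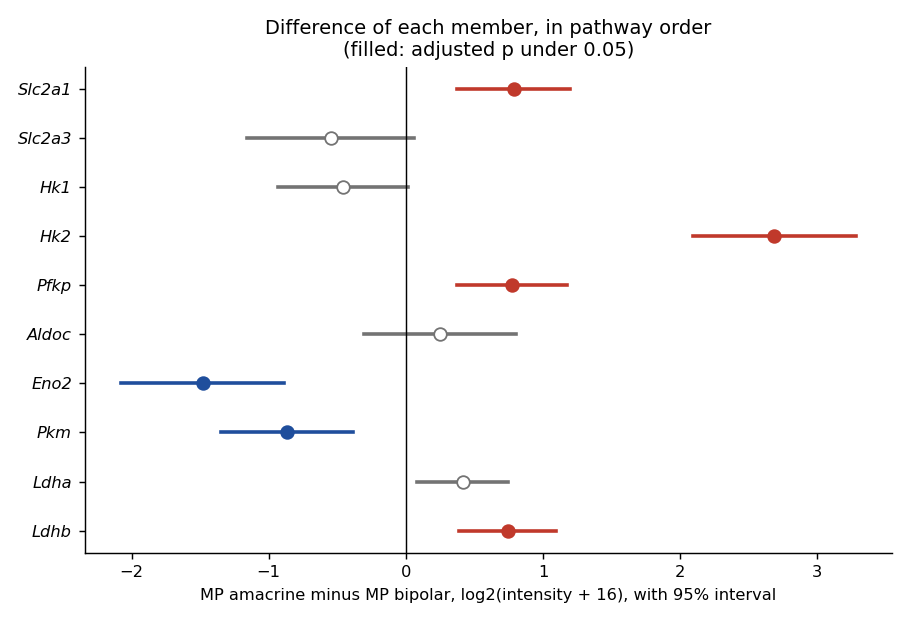
MP amacrine minus MP bipolar difference on the log2(intensity + 16) scale (horizontal axis) for the 10 genes in pathway order, with unadjusted 95% intervals. Filled points are called at an adjusted p under 0.05: Hk2 at 2.69, Slc2a1, Pfkp and Ldhb between 0.74 and 0.79, Pkm at -0.87 and Eno2 at -1.48.

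Tested probe sets of a gene had the same sign. Of the 22 probe sets 18 passed the filter, and all 4 genes with more than 1 tested probe set, Slc2a1, Slc2a3, Pfkp and Ldhb, had tested probe sets of 1 sign. Tested one by one, 9 of the 18 were called, where 10.2% of all 19168 tested probe sets were. The limit on how the 10 genes were chosen holds here too.

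Pairs of isoforms of the same step were set against each other array by array. The level of 1 probe set cannot be set against that of another, but the distance between a pair on the log2 scale can be followed from array to array. Hk2 minus Hk1 was -0.39 and 0.13 on the amacrine arrays against -2.80 and -3.75 on the bipolar arrays, a shift of 3.14 toward Hk2 in amacrine cells. Slc2a1 minus Slc2a3 was 2.44 and 1.75 against 0.62 and 0.90, a shift of 1.33. The arrays of the groups did not overlap for either pair.

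The shifts of the other pairs were smaller. That of Pfkp minus Pfkm was 0.70, at 0.99 and 1.13 on the amacrine and 0.34 and 0.38 on the bipolar arrays. That of Ldha minus Ldhb was -0.33, toward the B subunit in amacrine cells, at 0.35 and 0.41 against 0.86 and 0.55. Aldoc minus Aldoa shifted by 0.31 without overlap, but its arrays overlapped under quantile scaling (0.20) and cyclic loess scaling (0.22). Pfkp minus Pfkl had a shift of 0.52 with overlapping arrays. These shifts are descriptions and were not tested.

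Of 11 tested other enzymes of glycolysis 1 was called, where 13.5% of all tested genes were. It was Pgk1, the phosphoglycerate kinase that makes the first ATP of the pathway. It had intensities of 4237 and 4114 on the amacrine and 3150 and 3208 on the bipolar arrays, a log2 difference of 0.39 (SE 0.10, adjusted p = 0.0339, limma). The 2 other tested Pgk1 probe sets gave 0.35 and 0.25 and were not called, and the call was lost without either bipolar replicate (adjusted p = 0.219 and 0.201, limma). The largest difference of the list was that of Eno3, given above, at -0.84, with both bipolar arrays above both amacrine arrays and an unadjusted p of 0.00920 (limma). Eno3 was called without MP amacrine replicate 1 (-0.99, adjusted p = 0.0494, limma). Tpi1 (-0.13), Pgam1 (-0.10) and Bpgm (-0.30) did not pass, and the median of the 11 was 0.07. Gapdh, Gpi1 and Eno1 were not analysed here.

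Among 6 other tested hexose transporter genes 1 was called, where 13.5% of all tested genes were. Slc2a13, which despite its family name is a proton-coupled transporter of myo-inositol, had intensities of 1330 and 1177 on the amacrine arrays against 26.1 and 21.9 on the bipolar arrays. It was called (4.99, SE 0.22, adjusted p = 1.59e-05, limma). It passed the filter through the amacrine arrays alone, and its bipolar values lay below the array medians of 45.8 and 44.5, so the size of this difference rests on a bipolar level not set apart from dim probe sets. The remaining 5, Slc2a5, Slc2a8, Slc5a1, Slc5a2 and Slc45a1, lay between -0.16 and 0.08.

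Genes that steer sugar into or out of glycolysis differed by gene. Tigar, a fructose bisphosphatase that diverts sugar toward the pentose phosphate pathway, was higher in bipolar cells at 395 and 318 against 148 and 122 in amacrine cells (-1.30, adjusted p = 0.00773, limma). It was the called member among 5 tested regulators of phosphofructokinase, and its call was lost without MP bipolar replicate 1 (adjusted p = 0.0713, limma). Pfkfb3, which makes the activator of phosphofructokinase, was at 0.68 (adjusted p = 0.0995, limma) and did not pass.

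In the pentose phosphate pathway 1 of 6 tested genes was called, where 13.5% of all tested genes were. Tkt, a transketolase that links that pathway back to glycolysis, had 2166 and 1737 on the amacrine and 1014 and 944 on the bipolar arrays (0.98, SE 0.18, adjusted p = 0.00815, limma). Another Tkt probe set gave 1.18 and was called, the remaining one gave 0.37 and was not, and without MP bipolar replicate 2 the adjusted p of Tkt was 0.0553 (limma).

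Of 8 tested glycogen genes 2 were called, in opposite directions, where 13.5% of all tested genes were called. Ppp1r3c, a subunit that targets protein phosphatase to glycogen and favours its synthesis, was higher in amacrine cells at 78.3 and 158 against 8.34 and 7.74 (2.41, SE 0.30, adjusted p = 0.00126, limma). Ppp1r3c too passed the filter through the amacrine arrays alone, and the same limit holds for the size of its difference. Gyg, the glycogenin that primes glycogen chains, was higher in bipolar cells at 570 and 598 against 168 and 224 (-1.52, SE 0.24, adjusted p = 0.00395, limma). A second Gyg probe set gave -1.36 and was called too.

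Of 4 tested genes of lactate and pyruvate transport 1 was called, where 13.5% of all tested genes were. Slc16a1, a monocarboxylate transporter that carries lactate and pyruvate, was higher in bipolar cells at 95.2 and 189 against 43.7 and 42.0 (-1.36, SE 0.30, adjusted p = 0.0203, limma). It passed the filter through the bipolar arrays alone, with amacrine values just below the array medians of 44.5 and 47.2. The call was lost without MP bipolar replicate 2 (-0.92, adjusted p = 0.106, limma) and without MP amacrine replicate 2 (adjusted p = 0.0691). The relatives Slc16a3 and Slc16a7 were too dim to be tested.

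By limma no gene was called among 11 tested of the pyruvate dehydrogenase complex and its regulators, 16 of the tricarboxylic acid cycle and 8 of the NADH shuttles, and 3, 1 and 2 of them had an unadjusted p under 0.05. Their medians were -0.09, -0.12 and -0.18. With the mean of all probe sets Sucla2 of the tricarboxylic acid cycle was called as higher in bipolar cells (-1.15, adjusted p = 0.0110, limma). Its brightest probe set gave -0.17. Pdp1 of the pyruvate dehydrogenase list was called in that setting too (-0.98, adjusted p = 0.0148, limma). It was also called with a filter at the 75th percentile and with eBayes without trend. Further calls appeared without MP amacrine replicate 1, all as higher in bipolar cells. They were Pdha1 (-1.24), Idh3b (-0.56) and Idh3g (-0.73) of the tricarboxylic acid cycle, and Mdh1 (-0.45) of the shuttles. That setting leaves MP amacrine replicate 2, the array with the steeper 3-prime to 5-prime signal, as the only amacrine array. Calls over all tested genes also leaned further toward bipolar cells in it, and the part of that array was not tested. Without MP amacrine replicate 2 the shuttle gene Gpd2 was called (-1.43, adjusted p = 0.0436, limma). The 3 of the pyruvate dehydrogenase list with an unadjusted p under 0.05 were its catalytic subunit gene Pdha1 (-0.90), the kinase gene Pdk4 (-0.91) and the phosphatase gene Pdp1 (-0.85). The brightest of each, Pdhb (-0.01), Mdh2 (-0.02) and Mdh1 (-0.28), did not pass. Of 3 tested creatine kinase genes, the mitochondrial Ckmt1 was called as higher in bipolar cells (-1.07, adjusted p = 0.0440, limma), a call that was lost without MP amacrine replicate 2 (adjusted p = 0.159), MP bipolar replicate 1 (0.233) and MP bipolar replicate 2 (0.0659), and that did not pass when probe sets were tested one by one.

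Of 19 tested regulators of glycolytic genes 3 were called, where 13.5% of all tested genes were. Hif1a, the oxygen-regulated subunit of the factor that activates many genes of glycolysis, was higher in amacrine cells at 5435 and 5677 against 3608 and 4175 (0.52, SE 0.10, adjusted p = 0.0120, limma). Its other tested probe sets gave 1.36, 2.61 and 1.04, the last of them not called, and without MP bipolar replicate 1 the adjusted p of Hif1a was 0.116 (limma). Ppargc1a, a coactivator of mitochondrial genes, was higher in amacrine cells at 246 and 402 against 62.9 and 86.9 (1.88, SE 0.28, adjusted p = 0.00349, limma). Of the 3 other tested Ppargc1a probe sets, all of the same sign, the dimmest gave 0.25.

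Txnip, an inhibitor of glucose uptake that is induced by glucose, was higher in bipolar cells at 889 and 1352 against 535 and 496 (-1.07, SE 0.24, adjusted p = 0.0242, limma). Its call was lost without MP bipolar replicate 2 (-0.77, adjusted p = 0.213, limma) and without MP amacrine replicate 2 (adjusted p = 0.0728). Among 10 tested hypoxia-responsive genes outside glycolysis, Bnip3, a mitochondrial protein of mitophagy and a known target of HIF, was the only one called, at 1903 and 1848 against 801 and 873 (1.15, SE 0.16, adjusted p = 0.00261, limma). Vegfa (0.15), Ddit4 (-0.24) and Kdm3a (0.05) did not pass.

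Over all these lists 12 of 106 tested genes, or 11.3%, were called, 7 as higher in amacrine and 5 as higher in bipolar cells. That share was near the 13.5% of all tested genes. The split depended on the arrays. With 1 array left out in turn, it leaned toward bipolar cells only without MP amacrine replicate 1. In that setting the calls over all tested genes leaned further toward bipolar cells too. The arrays of the groups did not overlap for 42.5% of the 106, a lower share than the 53.3% of all tested genes. Single lists are short, and their counts of calls are to be read beside the 13.5% of all tested genes.

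**Figure D3:**
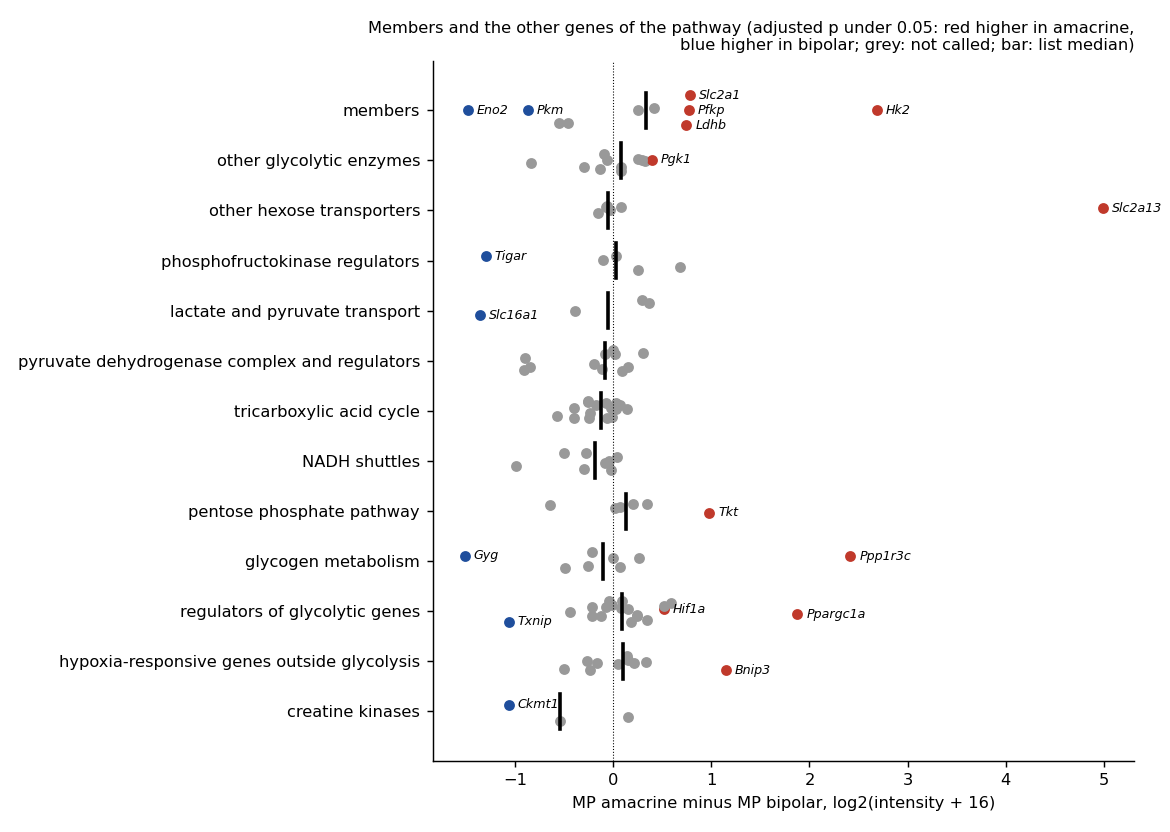
MP amacrine minus MP bipolar difference on the log2(intensity + 16) scale (horizontal axis) for the 10 members and the tested genes of 12 lists of the pathway and its surroundings (rows, with vertical scatter for legibility). Red and blue points are called as higher in amacrine and bipolar cells and bars are list medians; most lists centre near 0, and Slc2a13 at 4.99, dim on the bipolar arrays, and Hk2 at 2.69 lie farthest out.

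The stretches of 250 bases upstream of the transcription starts were read from RefSeq (GRCm38.p6) for the letters that HIF binds, ACGTG and GCGTG on both strands, because genes of glycolysis are known HIF targets. The table held 13 such windows for 9 of the 10 genes, and Slc2a3 had none. The Hk2 and Eno2 windows are shown because these genes had the largest differences in each direction, and that of Ldha because it held the most matches. Sequences are 5′ to 3′ on the gene's strand and end at the base before the start, and capitals mark every match.
Hk2, chr6:82774455-82774704, minus strand: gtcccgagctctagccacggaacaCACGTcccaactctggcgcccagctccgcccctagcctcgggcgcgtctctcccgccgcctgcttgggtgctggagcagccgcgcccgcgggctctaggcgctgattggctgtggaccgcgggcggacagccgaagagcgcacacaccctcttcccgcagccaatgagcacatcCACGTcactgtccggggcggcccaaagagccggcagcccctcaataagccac
Eno2, chr6:124769674-124769923, minus strand: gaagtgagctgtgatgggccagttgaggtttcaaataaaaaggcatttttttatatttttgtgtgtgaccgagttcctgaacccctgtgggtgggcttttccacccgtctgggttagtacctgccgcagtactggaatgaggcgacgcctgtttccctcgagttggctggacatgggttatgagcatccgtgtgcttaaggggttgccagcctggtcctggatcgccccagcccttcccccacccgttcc
Ldha, chr7:46845554-46845803, plus strand: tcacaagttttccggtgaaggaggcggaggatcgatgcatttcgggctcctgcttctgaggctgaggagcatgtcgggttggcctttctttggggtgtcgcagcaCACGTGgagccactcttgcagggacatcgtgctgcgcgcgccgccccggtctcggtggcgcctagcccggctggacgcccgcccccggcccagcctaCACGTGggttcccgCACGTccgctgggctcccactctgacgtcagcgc

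The Hk2 window held ACGTG 2 times, 226 and 52 bases before the start, and the Eno2 window held neither word. The first Ldha window held ACGTG 5 times, 4 of these as both strands of 2 copies of the palindrome CACGTG, which contains ACGTG and which basic helix-loop-helix factors such as Myc also bind. Of the other called genes, Slc2a1 held 1 match to each word, Pfkp held GCGTG 3 times and Ldhb 1 time, and of the 2 Pkm windows the upstream one held none and the downstream one held ACGTG 1 time. ACGTG or GCGTG was found in 10 of the 13 windows of these genes and in 38.6% of all 32851 windows of that length, ACGTG alone in 4 and in 16.6%. The windows of these genes were rich in G and C, with 12 of 13 above the median of 52.4% of all windows, among them Hk2 at 69.6% and Eno2 at 54.4%. Among all windows above that median 55.0% held ACGTG or GCGTG, against 22.9% of the rest, and all 10 windows with a match lay above it. The part of base composition in the count of 10 was not tested. A match is a run of letters and not a binding site, and no match says only that the letters are not in this window.

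**Figure D4:**
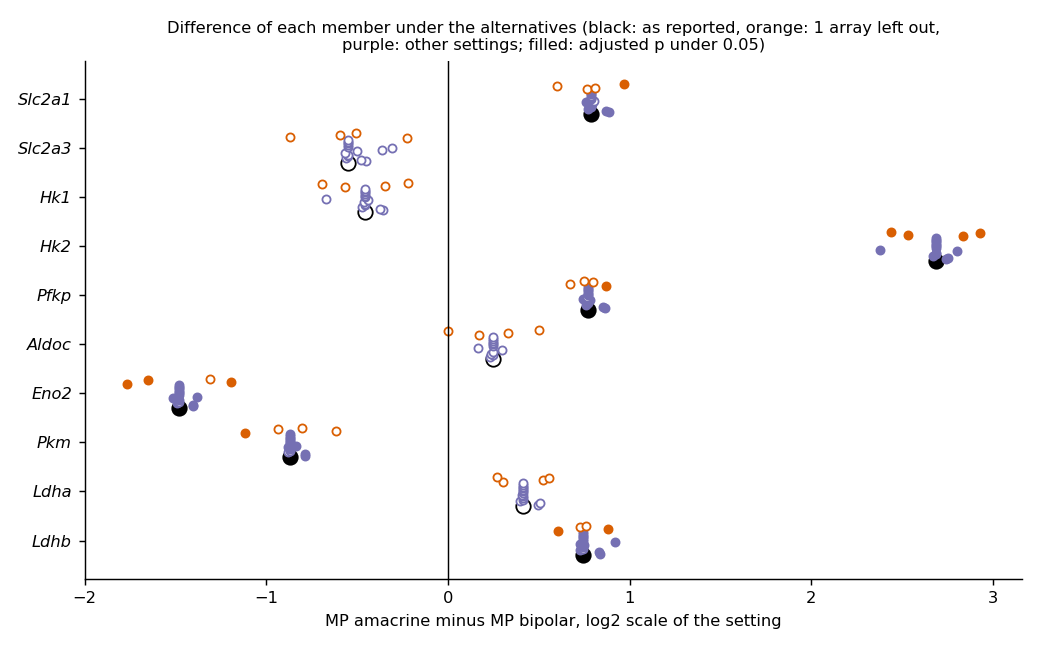
Log2 difference of each of the 10 genes (horizontal axis) as reported (black), with 1 array left out (orange) and under the other settings (purple); filled points have an adjusted p under 0.05. Hk2 stays filled throughout, between 2.38 and 2.93. The other called genes, Slc2a1, Pfkp, Eno2, Pkm and Ldhb, have open points, both where an array was left out and under other settings.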

How the data were processed

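The table deposited by the authors holds linear intensities of 45101 probe sets on 4 arrays. The sources used here do not state the software or the scaling behind these intensities. Values were used as log2(intensity + 16), an offset that understates differences of dim genes. Samples were grouped by their titles. The 64 control probe sets were left out, and 34945 probe sets with exactly 1 annotated gene were used. The probe set with the highest mean stood for a gene, and a gene was tested when it lay above the array median on at least 2 of 4 arrays (11583 genes). Groups were compared with limma 3.58.1 in R 4.3.3 (lmFit, eBayes with an intensity trend), two-sided, Benjamini-Hochberg adjusted, threshold 0.05. The fit was tested on simulated data. Alternatives were other scaling, filters, offsets, probe set rules, variance moderation, array weights, the replicate number as a block and each array left out.

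The 10 genes and all lists were chosen with earlier results of these data known. The rule for naming took all 10 genes with every probe set and, of each list, up to 3 called genes in each direction whose arrays did not overlap, or else its brightest tested gene. It also named Gapdh, which was not analysed, since its probe sets are controls or are annotated to pseudogenes as well. Other genes given with values were chosen after their values were seen. Marker lists were amacrine, bipolar, rod, cone, Müller glia, astrocyte, endothelial, pericyte, microglia, erythrocyte, pigment epithelium, ganglion cell, horizontal cell and progenitor. Promoter windows came from RefSeq.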

Additional observations from a re-analysis of the deposited data

How the results depend on the processing

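Of 178 values of the 10 genes under the 18 alternatives, 154 kept their direction and their side of the threshold, 23 of a called gene missed it and 1 turned its sign. That one was Aldoc without MP bipolar replicate 1, which ranged from -0.0019 to 0.50 with each array left out. The number of the 10 genes called, 6 as reported, was 1 without the filter on dim probe sets, where Hk2 stayed called, 3 with eBayes without trend, and 2 to 5 with each array left out. The calls over all genes, 1559 as reported, were 785 without the filter and 917 to 1939 with each array left out, lowest without MP bipolar replicate 2. The pathway genes called, 12 as reported, were 6 without the filter and 7 to 20 with each array left out. Leaving out an array leaves 1 in its group, whose spread is then taken from the other group. The pairs of isoforms without overlap, 5 as reported, were 5 with median scaling and both other offsets and 4 with quantile and cyclic loess scaling, where Aldoc and Aldoa overlapped. The planned pair of Eno2 and Eno1 was not run.

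Replicate numbers are shared between the groups, but no label ties them to a litter or day. The deviations of same-numbered arrays correlated at -0.04 across genes. With the replicate block 1932 genes, 6 of the 10 and 17 pathway genes were called, the last as 6 higher in amacrine and 11 higher in bipolar cells, with 3 of them in the pyruvate dehydrogenase list (Pdha1, Pdk4 and Pdp1) and 1 in the NADH shuttles (Gpd2).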

Other observations

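The remaining marker lists were read for RNA of other cells. Of 5 tested microglia markers 1, Csf1r, was higher in MP amacrine cells, at 383 and 663 against 256 and 197, and the list summed to 1260 to 4066 in amacrine and 458 to 1665 in bipolar cells. Ctss, a lysosomal protease of microglia, ranged from 2.27 to 2665 over the 4 arrays. Of 2 tested pericyte markers 1 was called, Pdgfrb, at 66.0 and 69.6 in amacrine and 4.01 and 9.56 in bipolar cells, having passed the filter on dim probe sets through the amacrine arrays alone. Ganglion cell markers summed to 1929 to 3882 in amacrine and 2814 to 3675 in bipolar cells. Thy1 carried most of the bipolar sum, at 806 and 1455 against 2462 and 3415, and was called as higher in bipolar cells. Pou4f1, Nefl, Nefm and Slc17a6 lay higher on both amacrine arrays and were not called. Horizontal cell markers summed to 551 to 807 in amacrine and 236 to 323 in bipolar cells, and those of pigment epithelium to 189 to 204 and 150 to 186. Dct of the pigment epithelium list was called as higher in amacrine cells, having passed the filter through the amacrine arrays alone. The part of these lists in the differences of the glycolysis genes was not tested.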
